A study of Mus musculus with 9 samples.

Results

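Dppa2, Dppa3, Dppa4, Dppa5a, Utf1, L1td1, Trim71, Lin28a and Lin28b are 9 genes known for their expression in pluripotent cells, early embryos or germ cells. They were chosen by name, and all 9 were among the 19938 genes measured with a row of their own, each by the row with the highest mean over the 9 arrays. RNA came from dedifferentiated mouse cardiac fibroblasts (n = 3 samples), from C57 ES cells (n = 3) and from adult mouse cardiac fibroblasts (n = 3). All 9 samples carry the strain label C57BL/6, and the title of the series describes the dedifferentiation as based on protein. Each sample went on its own Affymetrix Mouse Gene ST array (version 1.0, per the labels). The labels used here name no allele, transgene, agent, time point, passage, age other than adult, or ES cell line, nor do they tie any sample to its own animal or culture. The p-values therefore cover the spread among these arrays, which could be technical.

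Lin28a and Lin28b are RNA-binding proteins with a cold-shock domain and zinc knuckles. They bind the loop of let-7 precursors and block their processing, and Lin28a recruits a terminal uridylyltransferase that marks the precursor for decay. The let-7 microRNAs in turn repress Lin28a, Lin28b and Trim71, a ubiquitin ligase and RNA-binding repressor. Dppa2 and Dppa4 are SAP-domain proteins that act as a heterodimer on chromatin. Dppa3 (Stella) protects maternal methylation in the zygote and binds the maintenance methylation factor Uhrf1, Dppa5a (Esg1) is a KH-domain RNA-binding protein, Utf1 is a chromatin-associated protein of pluripotent cells, and L1td1 is an RNA-binding protein derived from the ORF1 of a LINE-1 element, known to bind LIN28 in human cells.

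All values are log2 expression values as deposited, and the levels of different genes were not set against each other, since each rests on its own probes. Median values of the 9 arrays lay between 4.647 and 4.859. Arrays of 1 group correlated with each other at 0.9931 to 0.9946 among dedifferentiated cells, 0.9875 to 0.9923 among ES cells and 0.9907 to 0.9942 among fibroblasts, across genes, which are not independent replicates. Dedifferentiated arrays correlated with ES arrays at 0.9818 to 0.9863 and with fibroblast arrays at 0.9151 to 0.9234. The fibroblast label was borne out by its markers: the mean log2 level of 14 fibroblast genes was 6.2 to 6.29 on dedifferentiated arrays and 5.83 to 5.9 on ES arrays, against 10.74 to 10.84 on fibroblast arrays. The ES regulator genes Pou5f1, Sox2 and Nanog were higher than in fibroblasts by 7.82, 6.24 and 6.69 log2 units in dedifferentiated cells, and by 7.82, 6.29 and 6.98 in ES cells. In RNA from whole cultures, fewer expressing cells and less RNA per cell cannot be told apart.

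All 9 genes were called higher in dedifferentiated cells than in fibroblasts, by 1.48 (Lin28b) to 7.31 (Dppa5a) log2 units, and all 9 were called higher in ES cells than in fibroblasts, by 1.34 (Lin28b) to 7.76 (Dppa5a). A gene was called at a limma adjusted p under 0.05 (Benjamini-Hochberg over 19938 genes) with a minimum change of 1 log2 unit. Over all genes, 8.79% were called higher and 10.1% lower in dedifferentiated cells than in fibroblasts, and 8.85% higher and 10.4% lower in ES cells. The median change of the 9 genes was 4.65 log2 units in dedifferentiated cells, against 0.01 over all genes, and 4.26 in ES cells, against 0.02 over all genes. On every dedifferentiated and ES array each of the 9 genes lay above all 3 fibroblast arrays; 28.9% of all genes did so for dedifferentiated arrays and 27.6% for ES arrays. Both comparisons use the same fibroblast arrays, so they are not independent of each other.

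Between dedifferentiated and ES cells the 9 genes differed by less than 1 log2 unit, and 0 of 9 were called. Over all genes, 1.01% were called higher and 0.547% lower in dedifferentiated cells. With the adjusted p alone and no minimum size, Dppa2, L1td1, Lin28a and Trim71 passed as higher in dedifferentiated cells and none as lower, where 11.2% of all genes passed as higher and 10% as lower. The median difference of the 9 genes was 0.43 log2 units, against 0 over all genes.

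**Figure D1:**
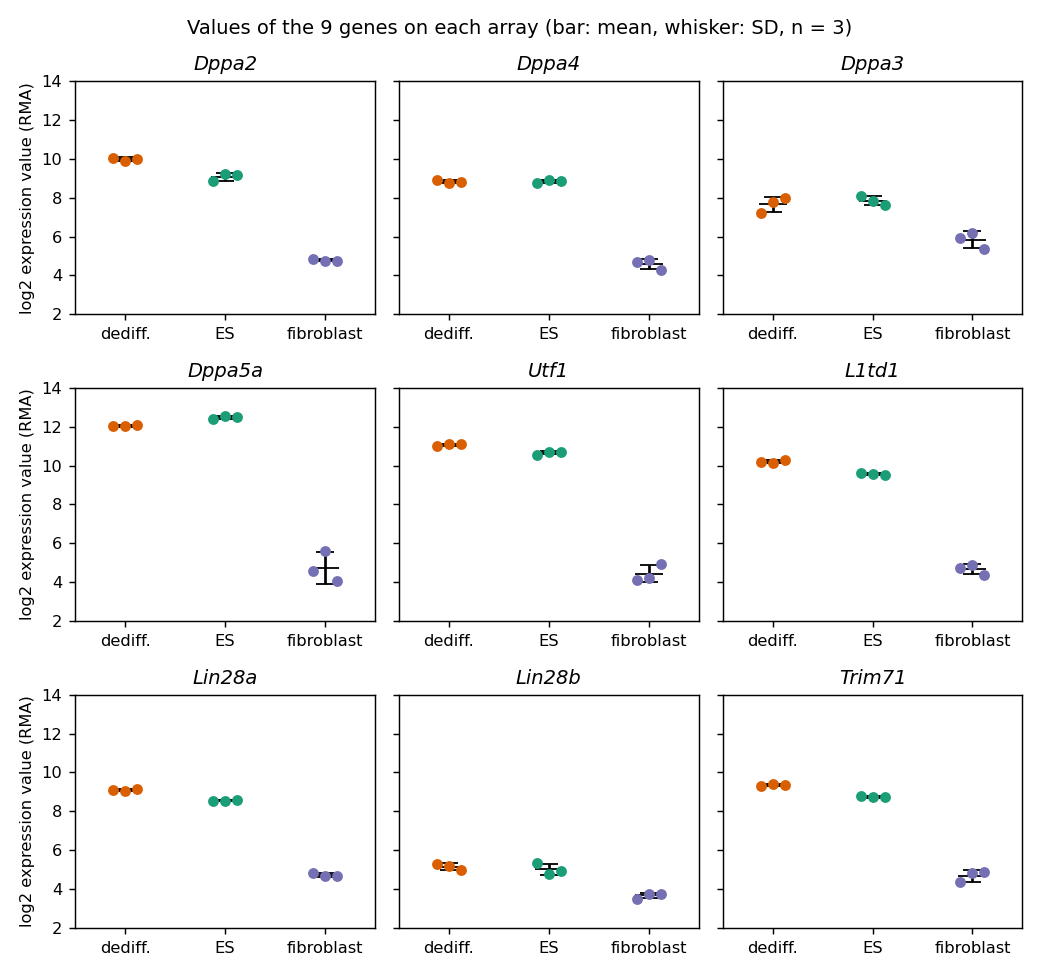
Log2 expression values of the 9 genes (vertical axis) on each array, with dedifferentiated, ES and fibroblast arrays from left to right in each panel. Points are single arrays, with bars for the mean and whiskers for the SD (n = 3); every dedifferentiated and ES point lies above the 3 fibroblast points of its panel, with the narrowest separation for Dppa3 and Lin28b.

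Dppa2 and Dppa4 form the chromatin pair. Dppa2 read 10.06, 9.87 and 10 on the dedifferentiated arrays, 8.85, 9.23 and 9.18 on the ES arrays and 4.85, 4.74 and 4.76 on the fibroblast arrays. The 3 groups did not overlap, and the dedifferentiated arrays were the highest. Dppa2 was 5.19 log2 units (95% interval 4.96 to 5.42, 36.5-fold) higher in dedifferentiated cells than in fibroblasts (limma adjusted p = 7.8e-12), the rise of rank 37 among 19938 genes. It was 4.30 log2 units higher in ES cells than in fibroblasts (limma adjusted p = 3e-11). The gap of Dppa2 between dedifferentiated and ES cells was the widest of the 9 genes, 0.89 log2 units (0.66 to 1.12, 1.85-fold, limma adjusted p = 0.00018).

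Its partner gene Dppa4 read 8.91, 8.76 and 8.80 on dedifferentiated arrays, 8.76, 8.92 and 8.84 on ES arrays and 4.68, 4.78 and 4.29 on fibroblast arrays. Dedifferentiated and ES values overlapped, and both lay far above the fibroblast values. Dppa4 was 4.24 log2 units (3.98 to 4.50) higher in dedifferentiated cells than in fibroblasts (limma adjusted p = 9.2e-11). The difference between dedifferentiated and ES cells was -0.02 log2 units, with an interval of -0.28 to 0.24 (limma adjusted p = 0.95). Dppa2 passed the adjusted p between dedifferentiated and ES cells and Dppa4 did not; whether the pair differ in this was not tested.

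Dppa2, Dppa3 and Dppa4 each had a second probe set under the same symbol. The second probe set of Dppa2 read 7.40, 7.24 and 7.48 on dedifferentiated arrays, 6.35, 6.80 and 6.63 on ES arrays and 3.25, 4.27 and 3.54 on fibroblast arrays. The order of the 3 groups was that of the first probe set, with no overlap. In a fit over all 35557 rows, the second Dppa2 probe set was 0.78 log2 units (0.24 to 1.32) above its ES level in dedifferentiated cells and missed the threshold (limma adjusted p = 0.068). For Dppa4 the second probe set read 8.58, 8.64 and 8.82 on dedifferentiated arrays, 7.95, 8.77 and 8.66 on ES arrays and 2.95, 2.77 and 3.38 on fibroblast arrays, and dedifferentiated and ES values again overlapped. The positions of the first and the second probe sets were not used here. Which of them lies at the gene itself was not tested, nor was hybridisation of near-identical copies of these genes.

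**Figure D2:**
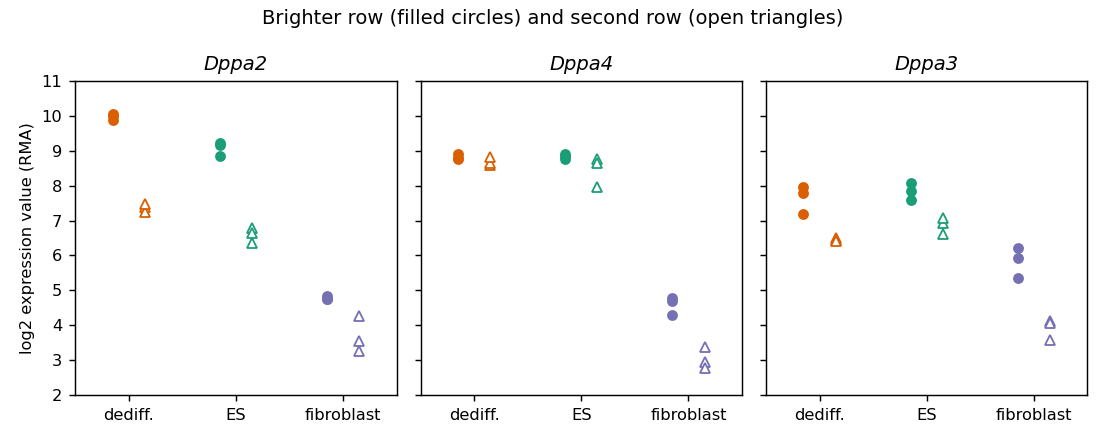
Log2 expression values of the first and the second probe set of Dppa2, Dppa3 and Dppa4 on dedifferentiated, ES and fibroblast arrays, 1 point an array. In both probe sets of each gene every dedifferentiated and ES array lies above the fibroblast arrays.

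Dppa2 and Dppa4 lie next to each other on chromosome 16. On one side of the pair the nearest protein-coding gene with a row was Morc1, a gene of the male germ line, which read 7.03, 7.14 and 7.21 on dedifferentiated arrays, 6.61, 6.66 and 6.62 on ES arrays and 4.47, 3.88 and 3.85 on fibroblast arrays. It was higher than in fibroblasts by 3.06 log2 units in dedifferentiated cells and by 2.56 in ES cells. On the other side Nectin3, an adhesion gene, differed from fibroblasts by -0.63 in dedifferentiated cells and -0.88 in ES cells. Genes of the early cleavage stage that DPPA2 and DPPA4 are known to activate in mouse ES cells were followed through 14 names, of which 6 had a row. Of these, 0 of 6 passed the limma test in any of the 3 comparisons, with changes of -0.29 to 0.08 in dedifferentiated cells and -0.27 to 0.18 in ES cells against fibroblasts, and of -0.25 to 0.05 between dedifferentiated and ES cells. Their group means were low, 2.77 to 3.97, below the lowest array median of 4.647, so the lack of a change says little. Duxf3, Zscan4c, Zscan4d and Zscan4f were among the names without a row.

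Dppa3 varied most of the 9 genes among the dedifferentiated arrays (SD 0.409). It read 7.19, 7.79 and 7.97 on dedifferentiated arrays, 8.08, 7.85 and 7.60 on ES arrays and 5.93, 6.20 and 5.35 on fibroblast arrays. Dedifferentiated and ES arrays overlapped, and all of them lay above the fibroblast arrays. Dppa3 was 1.82 log2 units (1.31 to 2.34, 3.54-fold) higher in dedifferentiated cells than in fibroblasts (limma adjusted p = 3.8e-05) and 2.02 (1.5 to 2.54) higher in ES cells (limma adjusted p = 1.6e-05). The dedifferentiated minus ES difference was -0.19, with an interval of -0.71 to 0.32 (limma adjusted p = 0.67). Its second probe set read 6.50, 6.45 and 6.42 on dedifferentiated arrays, 6.93, 7.06 and 6.60 on ES arrays and 3.58, 4.11 and 4.07 on fibroblast arrays. There the dedifferentiated arrays lay below the ES arrays without overlap, by -0.40 log2 units (-0.77 to -0.04), which missed the threshold (limma adjusted p = 0.16).

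Of 13 genes of DNA methylation maintenance and imprint protection measured, 4 were called higher in dedifferentiated cells than in fibroblasts and 3 in ES cells, and 0 were called lower. Their median change against fibroblasts was 0.22 for dedifferentiated and 0.14 for ES cells. Uhrf1, which brings the maintenance methyltransferase to replicated DNA, was higher than in fibroblasts by 1.70 (limma adjusted p = 1.2e-08) in dedifferentiated cells and 1.6 (limma adjusted p = 2e-08) in ES cells. Zfp57, a zinc finger protein that binds methylated imprints, was higher by 3.00 and Trim28, its corepressor, by 2.10 in dedifferentiated cells. Zfp57 was lower in dedifferentiated than in ES cells by -0.75 log2 units (limma adjusted p = 0.00019), short of the minimum size. The 3 dedifferentiated arrays all read 9.93 for Zfp57, so their spread is not a measure of its precision.

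Dppa5a had the greatest change of the 9 genes. It read 12.03, 12.03 and 12.11 on dedifferentiated arrays, 12.41, 12.56 and 12.52 on ES arrays and 4.56, 5.63 and 4.04 on fibroblast arrays. The groups did not overlap, and the dedifferentiated arrays lay just below the ES arrays. Its rise over fibroblasts was 7.31 log2 units (6.67 to 7.96, 159-fold, limma adjusted p = 1.8e-09) in dedifferentiated cells and 7.76 (7.11 to 8.40, 216-fold, limma adjusted p = 1e-09) in ES cells, of rank 3 among all genes in both. Between dedifferentiated and ES cells it differed by -0.44 (-1.09 to 0.20), which missed the threshold (limma adjusted p = 0.37). The SD of the 3 fibroblast arrays was 0.81, against 0.05 on dedifferentiated and 0.079 on ES arrays, and all 3 groups share 1 estimate of the spread. In a fit of the dedifferentiated and ES arrays alone, Dppa5a was lower in dedifferentiated cells by -0.44 (-0.61 to -0.28, limma adjusted p = 0.0053).

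A neighbour of Dppa5a on chromosome 9 is Ooep, a KH-domain gene of the subcortical maternal complex of the oocyte. Ooep read 8.19, 8.28 and 8.34 on dedifferentiated arrays, 9.20, 9.31 and 9.29 on ES arrays and 5.29, 5.95 and 5.26 on fibroblast arrays. It was higher than in fibroblasts by 2.77 in dedifferentiated cells and 3.77 in ES cells, and its dedifferentiated minus ES difference of -1.0 was called. That call was lost by size without dedifferentiated replicate 1 (-0.96), ES replicate 2 (-0.98) or ES replicate 3 (-0.99). Of the 7 measured genes of that complex and its relatives, Ooep was the 1 called higher in dedifferentiated cells than in fibroblasts, and Zbed3 the 1 called lower (-1.02). Zbed3 was not called without fibroblast replicate 1 (-0.94) or dedifferentiated replicate 3 (-1.0 after rounding).

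Utf1 read 11.03, 11.09 and 11.13 on dedifferentiated arrays, 10.57, 10.68 and 10.71 on ES arrays and 4.14, 4.24 and 4.94 on fibroblast arrays. The dedifferentiated arrays were the highest, and no groups overlapped. It was higher than in fibroblasts by 6.65 log2 units (6.27 to 7.02, 100-fold, limma adjusted p = 4.4e-11) in dedifferentiated cells, the rise of rank 8, and by 6.21 (5.84 to 6.59, 74.3-fold, limma adjusted p = 7e-11) in ES cells. The dedifferentiated minus ES difference of 0.43 (0.06 to 0.80) missed the threshold over all arrays (limma adjusted p = 0.1) and passed in the fit of those 2 groups alone (limma adjusted p = 0.0057).

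L1td1 read 10.20, 10.13 and 10.27 on dedifferentiated arrays, 9.63, 9.55 and 9.52 on ES arrays and 4.72, 4.89 and 4.38 on fibroblast arrays. Again the dedifferentiated arrays were above the ES arrays and these above the fibroblast arrays, with no overlap. The rise over fibroblasts was 5.54 (5.29 to 5.80, 46.6-fold, limma adjusted p = 9.7e-12) in dedifferentiated cells and 4.91 (4.65 to 5.16, limma adjusted p = 2.4e-11) in ES cells. L1td1 was 0.64 log2 units (0.38 to 0.89, 1.55-fold) higher in dedifferentiated than in ES cells (limma adjusted p = 0.0025).

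Promoter sequences were at hand for 5 of the 9 genes: Utf1, L1td1, Lin28a, Lin28b and Trim71 (RefSeq, GRCm38.p6; 250 bases before the start and 50 after it). Utf1 is shown for its run of GC boxes and Lin28a for its Sox core motif, beside a GC box on the other strand; motif letters are in capitals. Utf1 lies at chr7:139943606-139943905 (plus strand) and Lin28a at chr4:134018767-134019066 (minus strand).
Utf1: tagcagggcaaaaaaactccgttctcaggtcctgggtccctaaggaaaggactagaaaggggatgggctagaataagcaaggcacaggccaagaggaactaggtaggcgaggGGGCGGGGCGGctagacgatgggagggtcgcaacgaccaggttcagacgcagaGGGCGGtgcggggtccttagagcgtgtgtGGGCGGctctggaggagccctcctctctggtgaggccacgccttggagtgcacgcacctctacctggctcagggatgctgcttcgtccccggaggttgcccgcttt
Lin28a: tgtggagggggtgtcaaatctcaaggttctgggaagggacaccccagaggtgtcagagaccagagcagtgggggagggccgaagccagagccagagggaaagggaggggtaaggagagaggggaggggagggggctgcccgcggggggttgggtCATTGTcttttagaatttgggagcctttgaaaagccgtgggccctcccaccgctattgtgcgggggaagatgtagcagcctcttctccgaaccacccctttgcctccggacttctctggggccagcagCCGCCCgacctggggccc
The GC box (GGGCGG, either strand) occurred 4 times in the Utf1 window, a pair of them overlapping, and in 3 of the 5 promoters (Utf1, Lin28a, Trim71), against 35.7% of 32851 promoters. The Sox core (CATTGT, either strand) was in 1 of 5, Lin28a, against 12.6%, and the CCAAT box (CCAAT, either strand) in Trim71 and Lin28b, against 37.4%. The octamer ATGCAAAT was in 0 of 5, against 1.7%, and TATAAA in 0 of 5, against 13.6%. GC content was 62% in Utf1, 63.3% in Lin28a, 59.3% in Trim71, 58.7% in L1td1 and 39% in Lin28b, with a median of 52.7% over all promoters.

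Lin28a read 9.09, 9.03 and 9.17 on dedifferentiated arrays, 8.55, 8.55 and 8.58 on ES arrays and 4.81, 4.69 and 4.65 on fibroblast arrays. The groups did not overlap, with the dedifferentiated arrays highest. It was higher than in fibroblasts by 4.38 (4.21 to 4.54, 20.8-fold, limma adjusted p = 3.4e-12) in dedifferentiated cells and by 3.84 (3.68 to 4.01, 14.3-fold, limma adjusted p = 5.5e-12) in ES cells. Lin28a was also higher in dedifferentiated than in ES cells, by 0.54 (0.37 to 0.70, 1.45-fold, limma adjusted p = 5e-04).

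Its paralog Lin28b read 5.30, 5.19 and 4.97 on dedifferentiated arrays, 5.32, 4.79 and 4.93 on ES arrays and 3.51, 3.77 and 3.74 on fibroblast arrays. The dedifferentiated and ES arrays overlapped, and both groups lay above the fibroblast arrays. Lin28b was higher than in fibroblasts by 1.48 (1.17 to 1.78, 2.78-fold, limma adjusted p = 2.6e-06) in dedifferentiated cells and by 1.34 (1.03 to 1.64, limma adjusted p = 6e-06) in ES cells. The dedifferentiated minus ES difference was 0.14, with an interval of -0.17 to 0.44 (limma adjusted p = 0.59). Changes of genes read at low values are understated by this normalization, and the values carry no detection call.

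**Figure D3:**
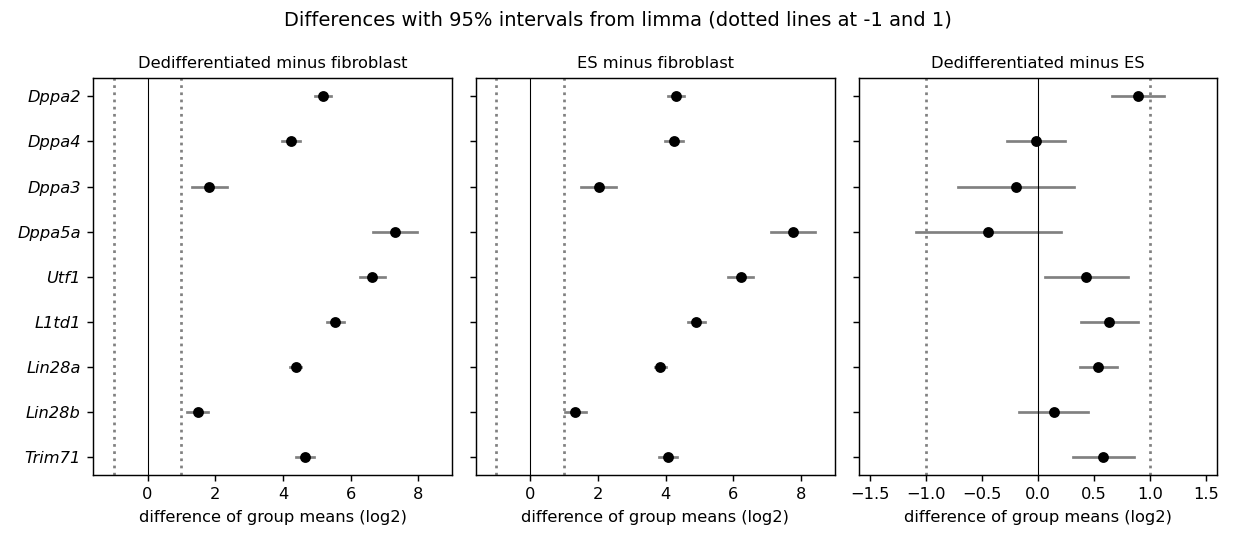
Log2 changes of the 9 genes in the 3 comparisons (dedifferentiated minus fibroblast, ES minus fibroblast, dedifferentiated minus ES), as points with 95% intervals from the limma fit and dotted lines at -1 and 1. The changes against fibroblasts run from 1.34 to 7.76, and those between dedifferentiated and ES cells from -0.44 to 0.89.

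The let-7 family is the best known target of both LIN28 proteins. Mature let-7 sequences are shown because the family is defined by its seed (bases 2 to 8, in capitals), which was GAGGUAG in 9 of 9 mouse let-7 and miR-98 5p sequences in RefSeq.
mmu-let-7a-5p: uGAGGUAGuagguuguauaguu
mmu-let-7c-5p: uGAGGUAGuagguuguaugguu
mmu-let-7g-5p: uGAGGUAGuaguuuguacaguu
mmu-miR-98-5p: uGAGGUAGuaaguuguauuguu
Zinc knuckles of LIN28 bind a GGAG motif in the precursor loop. A GGAG lay between the 2 mature arms in 9 of 12 let-7 family hairpins (75%), against 52 of 644 mouse hairpins with both arms annotated (8.1%). A pair of hairpins with the same mature let-7c, of which 1 holds the motif (in capitals), shows the difference; they lie at chr16:77599657-77599750 (Mirlet7c-1, plus strand) and chr15:85706603-85706697 (Mirlet7c-2, plus strand) of GRCm38.p6.
Mirlet7c-1: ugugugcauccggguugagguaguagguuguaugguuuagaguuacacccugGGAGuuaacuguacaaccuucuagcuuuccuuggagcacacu
Mirlet7c-2: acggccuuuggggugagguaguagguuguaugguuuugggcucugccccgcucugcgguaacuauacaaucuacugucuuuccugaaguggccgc
A match is a description of these letters, not a measured binding site.

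The arrays measured let-7 hairpin genes, not mature microRNAs. Of 10 hairpin rows, 0 were called in dedifferentiated cells against fibroblasts, and 1, Mirlet7f-1, was called higher in ES cells. Mirlet7f-1 read 3.65, 3.68 and 3.60 on dedifferentiated arrays, 3.99, 4.52 and 4.67 on ES arrays and 3.02, 2.95 and 3.26 on fibroblast arrays. The other 9 hairpin rows changed by -0.16 to 0.20 in dedifferentiated cells and -0.10 to 0.32 in ES cells against fibroblasts. Apart from Mirlet7e and Mirlet7i, the hairpin rows, Mirlet7f-1 included, had group means below the lowest array median of 4.647. At such low values neither a change nor the lack of one says much about let-7.

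A list of genes of let-7 processing and decay also held general microRNA silencing genes, namely the Ago and Tnrc6 genes and Mov10. Of its 19 measured genes, 5 were called higher and 0 lower in dedifferentiated cells against fibroblasts (median change 0.58). In ES cells 4 were called higher and 0 lower, with a median of 0.16. Tut4, the uridylyltransferase recruited by LIN28A, read 7.86, 7.70 and 7.73 on dedifferentiated arrays, 8.48, 8.84 and 9.01 on ES arrays and 6.75, 6.59 and 6.92 on fibroblast arrays. The 3 groups were in separate ranges, with ES arrays highest. Tut4 was higher than in fibroblasts by 1.01 (limma adjusted p = 4.2e-05) in dedifferentiated cells and by 2.02 (limma adjusted p = 1.1e-07) in ES cells, and lower in dedifferentiated than in ES cells by -1.01 (limma adjusted p = 0.00031). Its differences of 1.01 stood at the minimum size. The rise over fibroblasts fell short of it without dedifferentiated replicate 1 (0.96), without fibroblast replicate 2 (0.93), with further quantile normalization (0.96), with arrays centred on their medians (0.89) and with array weights (0.96). The difference from ES cells fell short of it without dedifferentiated replicate 2 (-0.98), dedifferentiated replicate 3 (-1.0 after rounding), ES replicate 2 (-0.98) or ES replicate 3 (-0.9). Tut7, another uridylyltransferase gene, went the other way against fibroblasts. It changed by -0.91 in dedifferentiated cells (limma adjusted p = 0.00013, short of the minimum size) and by -0.40 in ES cells (limma adjusted p = 0.029). With arrays centred on their medians Tut7 was called lower in dedifferentiated cells (-1.03). Dis3l2, the exonuclease that degrades uridylated let-7 precursors, was higher than in fibroblasts by 0.64 in dedifferentiated cells (limma adjusted p = 2e-04, short of the minimum size) and by 1.21 in ES cells (limma adjusted p = 9.5e-07). The microprocessor gene Drosha was higher by 1.71 in dedifferentiated and 1.62 in ES cells, while its partner Dgcr8 changed by 1.28 in dedifferentiated cells and -0.02 in ES cells, and was called higher in dedifferentiated than in ES cells by 1.30 (limma adjusted p = 6.1e-05).

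Known let-7 targets did not move as 1 group. Of 20 measured, 10 were called higher and 4 lower in dedifferentiated cells against fibroblasts (median change 0.99), and 10 higher and 6 lower in ES cells, with a median of 0.66. Igf2bp1, an oncofetal RNA-binding protein, read 10.56, 10.56 and 10.49 on dedifferentiated arrays, 9.74, 9.75 and 9.83 on ES arrays and 4.38, 4.41 and 4.27 on fibroblast arrays, a rise over fibroblasts of 6.18 in dedifferentiated cells (limma adjusted p = 4.9e-13) and 5.42 in ES cells. Igf2bp3 was higher than in fibroblasts by 2.92 in dedifferentiated cells and 3.24 in ES cells. Hmga2, an architectural chromatin protein, changed by 0.46 in dedifferentiated cells (limma adjusted p = 0.0058) and -0.07 in ES cells (limma adjusted p = 0.7). Il6, the cytokine, was lower than in fibroblasts by -7.46 in dedifferentiated cells and -7.70 in ES cells. Between dedifferentiated and ES cells 3 targets were called higher, Myc (2.31), Ccnd1 (1.41) and Ccnd2 (1.22), and 0 lower. Against fibroblasts, however, Myc was lower in dedifferentiated cells by -0.84 (limma adjusted p = 8.2e-06, short of the minimum size). Myc read 7.97, 7.95 and 7.99 on dedifferentiated arrays, 5.53, 5.86 and 5.58 on ES arrays and 8.84, 8.76 and 8.84 on fibroblast arrays. Ccnd1 was higher in dedifferentiated cells than in fibroblasts by 1.47.

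Trim71 read 9.28, 9.39 and 9.33 on dedifferentiated arrays, 8.80, 8.72 and 8.72 on ES arrays and 4.34, 4.83 and 4.86 on fibroblast arrays. The dedifferentiated arrays lay above the ES arrays and these above the fibroblast arrays. It was higher than in fibroblasts by 4.65 (4.38 to 4.93, 25.2-fold, limma adjusted p = 6.3e-11) in dedifferentiated cells and by 4.07 (3.80 to 4.34, limma adjusted p = 1.7e-10) in ES cells. Trim71 exceeded its ES level in dedifferentiated cells by 0.58 (0.31 to 0.86, 1.5-fold, limma adjusted p = 0.0062). A list joined the TRIM-NHL relatives Trim2, Trim3 and Trim32 with mRNAs known to be repressed by TRIM71 in mouse ES cells. Its medians cover both kinds. Of its 8 measured genes, 0 were called higher and 3 lower in dedifferentiated cells against fibroblasts (median -0.82). The mRNAs Rbl1 (-0.17) and Egr1 (-0.245) did not pass the adjusted p there. In ES cells 0 were called higher and 2 lower, with a median of -0.69. Of these 2, Plxnb2 (-1.02 in ES cells) was not called with further quantile normalization (-1.0 after rounding), with array weights (-0.95), without fibroblast replicate 3 (-0.99) or without ES replicate 1 (-0.91), which left 1. Mbnl1, a splicing regulator, read 7.11, 7.06 and 7.11 on dedifferentiated arrays, 6.23, 6.19 and 6.35 on ES arrays and 9.65, 9.55 and 9.66 on fibroblast arrays. Its change against fibroblasts was -2.52 for dedifferentiated and -3.36 for ES cells, both called.

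**Figure D4:**
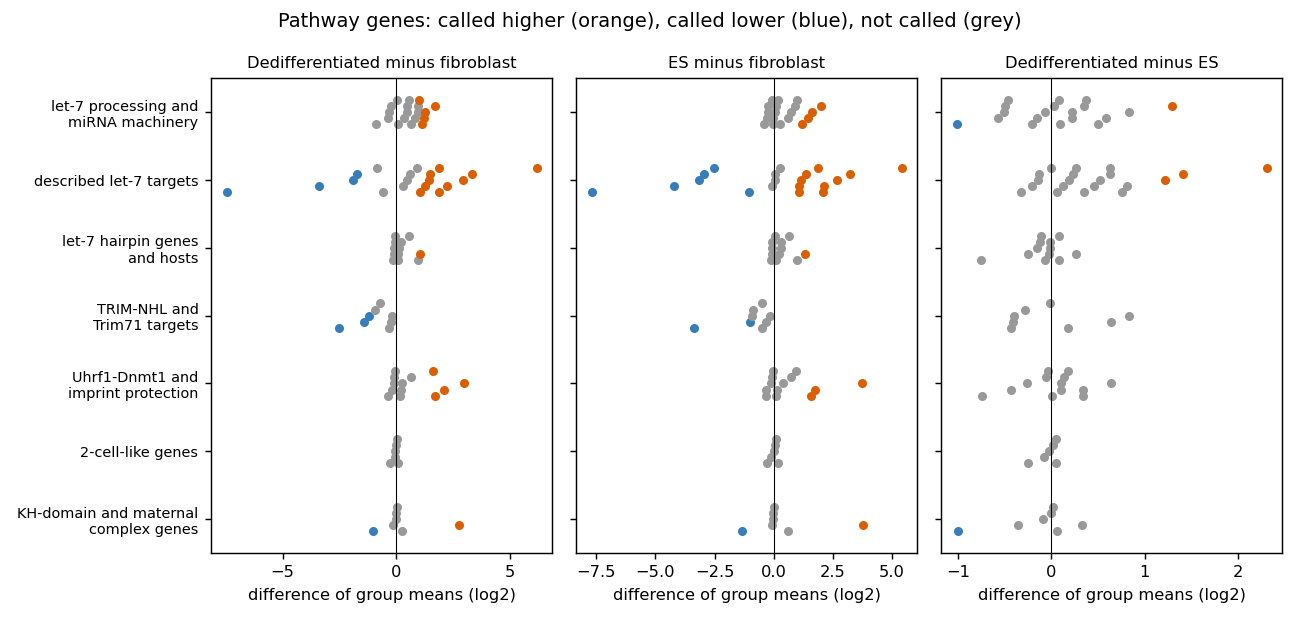
Log2 changes of genes around Lin28, let-7, Trim71 and the Dppa genes in the comparisons of dedifferentiated, ES and fibroblast arrays, 1 point a gene, grouped by list; orange points were called higher, blue points lower and grey points not called. The rightmost let-7 target in dedifferentiated cells against fibroblasts is Igf2bp1 at 6.18, and the genes of the early cleavage stage (2-cell-like genes) lie between -0.29 and 0.08.

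On the arrays of dedifferentiated and ES cells, 5 of the 9 genes (Dppa2, Utf1, L1td1, Trim71 and Lin28a) were higher on all dedifferentiated arrays, 1 (Dppa5a) was lower on all of them, and 3 (Dppa3, Dppa4 and Lin28b) overlapped. Over all genes, 16.9% lay higher without overlap and 15.6% lower. In the fit of these 2 groups alone, the same 5 genes passed as higher and Dppa5a as lower, where 10.1% of all genes passed as higher and 9.15% as lower. Markers of other cell types were read on the same arrays. The 14 fibroblast genes had a mean log2 level of 6.2 to 6.29 on dedifferentiated arrays and 5.83 to 5.9 on ES arrays, with 3 called higher in dedifferentiated cells, among them Vim (1.51) and Pdgfra (1.37). The 11 trophoblast and endoderm genes had a mean of 6.52 to 6.63 on dedifferentiated arrays and 5.93 to 5.99 on ES arrays. Of these, 4 were called higher: Sox17 (1.79), Gata4 (1.63), Gata6 (1.36) and Pdgfra, which is on the fibroblast list too. Gata4 and Gata6 were also high on fibroblast arrays, with means of 9.16 and 8.83, against 7.98 and 8.04 on ES arrays. Sox17 had a mean of 5.10 on fibroblast arrays, below its ES mean of 6.26. Cdx2, Eomes, Elf5, Hand1, Gata2, Gata3 and Afp were not called. The 8 endothelial genes had a mean of 5.2 to 5.34 on dedifferentiated arrays and 4.71 to 4.76 on ES arrays, with 2 called higher. The 9 macrophage genes had a mean of 4.21 to 4.22 on dedifferentiated arrays and 4.32 to 4.4 on ES arrays, with 0 called. At the adjusted p alone, 1 of them passed as lower in dedifferentiated cells (Cd68, -0.695) and 0 as higher. The 9 cardiomyocyte genes overlapped, with 4.8 to 4.84 on dedifferentiated arrays and 4.79 to 4.89 on ES arrays and 0 called. The part of these markers in the differences of the 9 genes was not tested.

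**Figure D5:**
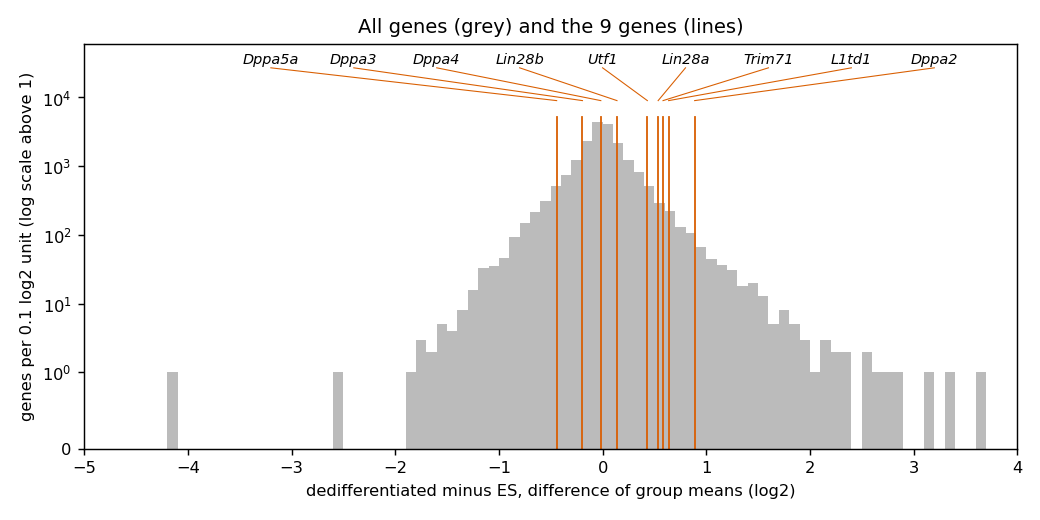
Histogram of the dedifferentiated minus ES difference (log2 units, horizontal axis) over 19938 genes, counted per 0.1 log2 unit (vertical axis, log scale above 1), with the 9 genes marked by lines. The 9 lines lie between -0.44 and 0.89, and the median of all genes is 0.

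Of 18 measured other ES cell associated transcripts, none of them one of the 9, 16 were called higher in dedifferentiated cells against fibroblasts (median 3.82) and 16 in ES cells against fibroblasts (median 3.77). In the comparison of dedifferentiated with ES cells 3 were called higher, Trh (3.34), Gdf3 (1.15) and Zfp296 (1.14), and 0 lower. The genes whose profile over the 9 arrays lay closest to each of the 9, by the Euclidean distance of centred log2 values, were Slc7a3 for Dppa2 (0.6), Gadd45a for Dppa3 (0.67), Esrp1 for Dppa4 (0.44), Nanog for Dppa5a (1.11), Slc38a4 for Utf1 (1), Pla2g1b for L1td1 (0.47), Epp13 for Trim71 (0.55), Kit for Lin28a (0.39) and Eomes for Lin28b (0.3). Among the 9 themselves, Trim71 and Lin28a were closest (0.67) and Dppa5a and Lin28b farthest apart (8.78). With 3 groups, such distances reflect mainly the differences between group means.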

How the data were processed

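RNA of dedifferentiated cardiac fibroblasts, ES cells and adult cardiac fibroblasts was hybridised to 9 arrays. The values are log2 expression values as deposited by the authors, made with RMA in Affymetrix Expression Console 1.1, per the submitters' processing notes. RMA includes background correction, quantile normalization and probe set summary, and changes of dim genes are understated. Groups follow the sample titles, although the fibroblasts' source name also holds the words ES cell.

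Of 35557 rows, 21789 had 1 symbol in the platform annotation, 1621 had several and 12147 were not listed there or had no symbol; 21698 matched GRCm38.p6 by Entrez ID. Of the 999 genes with more than 1 row, the row with the highest mean over the 9 arrays was used, leaving 19938 genes. The 9 arrays were fitted together in limma (version 3.58.1, in R 4.3.3), with moderated variances and Benjamini-Hochberg adjustment. Calls needed an adjusted p under 0.05 and 1 log2 unit. The script was tested on simulated data. The 9 genes and the 17 gene lists (224 places, 193 with a row) were chosen with earlier results of these data known. Beside the 9 genes, the text names up to 2 called list members a direction and a fixed set of partner genes; Dgcr8, Trim28 and others beyond these were named after their values were seen. Nearest neighbours on the chromosome and the second rows were chosen after the files were seen. Igf2bp2 had no row with 1 symbol. The number of arrays limits the precision. Alternatives were other size and p thresholds, other uses of rows, further normalization, filters on dim genes, variance settings, array weights, a replicate block and leaving out each array.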

Additional observations from a re-analysis of the deposited data

Results flagged for a closer look

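The second probe sets of Dppa2, Dppa3 and Dppa4 stood outside the main measurement and carried a signal above the fibroblast arrays. In dedifferentiated cells they were higher than in fibroblasts by 3.69 log2 units for Dppa2 (limma adjusted p = 2.3e-06), 2.54 for Dppa3 (limma adjusted p = 2.1e-06) and 5.65 for Dppa4 (limma adjusted p = 1.2e-07). The first probe sets gave 5.19, 1.82 and 4.24 for the same genes. In ES cells the second probe sets were higher by 2.91, 2.94 and 5.43.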

How the results depend on the processing

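Each of the 9 genes kept its direction against fibroblasts under each alternative that gave it a value. At 2 log2 units 7 of 9 were called in dedifferentiated cells (Dppa3 and Lin28b were not) and 8 of 9 in ES cells (Lin28b was not). Filters on dim genes removed Lin28b and left 8 in both, and under the other alternatives 9 of 9 were called. Between dedifferentiated and ES cells 0 of 9 were called except with no minimum change, where 4 were. There, Dppa2, L1td1, Lin28a and Trim71 had a limma adjusted p under 0.05 in 20 of 20 alternatives (highest 0.0024, 0.015, 0.0042 and 0.028), Utf1 in 4 of 20 (0.0036 to 0.25), Dppa5a in 2 of 20 (0.0053 to 0.54), and Dppa3, Dppa4 and Lin28b in none. The 2 for Dppa5a were the fit of those groups alone and the fit without the second fibroblast array. Second probe sets were not among the 20 alternatives, and that of Dppa2 missed the threshold (0.78, limma adjusted p = 0.068). The count of all genes depended on the size threshold. Against fibroblasts it was 3765 in dedifferentiated cells, 1249 at 2 log2 units and 9445 with no minimum change; in ES cells it was 3837, 1313 and 9773. Between dedifferentiated and ES cells it was 310, 18 and 4239, and 633 with all rows of the table. Leaving out single arrays gave 3762 to 3817, 3837 to 3938 and 299 to 342 genes. Deviations of samples with the same replicate number from their group means correlated at -0.2 to 0.25 over 9 pairs. Samples with unlike numbers were not compared in this way, so whether the numbers pair the samples cannot be told. With the replicate block, 9, 9 and 0 of the 9 genes and 3765, 3837 and 310 of all genes were called. These counts equal those without the block because the design is balanced, which leaves each change as it was, and the size threshold decided the calls.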

Other observations

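Of 14 measured germ cell genes, 10 were called higher and 1 lower in dedifferentiated cells against fibroblasts, 3 were not called, and the median change was 1.58 log2 units; in ES cells 10 were called higher and 1 lower, with a median of 1.83. Kit, the stem cell factor receptor, was higher by 4.51 in dedifferentiated cells and 3.86 in ES cells, and Tfap2c, a germ cell transcription factor, by 4.37 in dedifferentiated cells and 4.08 in ES cells. Ifitm3 was lower by -2.13 in dedifferentiated cells and -2.29 in ES cells. Core pluripotency regulators were called higher for 11 of 12 genes in each comparison with fibroblasts, with medians of 2.8 in dedifferentiated cells and 2.95 in ES cells, and Tfcp2l1 was the 1 called lower in dedifferentiated than in ES cells.

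Of 8 cold-shock domain and related RNA-binding genes, 1 was called higher in dedifferentiated cells (Zcchc3, 1.45) and 1 in ES cells (Ybx2, 1.62) against fibroblasts, and 0 lower. Of 5 measured microRNA genes of ES cells, all with low group means of 2.45 to 3.47, 0 were called by limma in the 3 comparisons. That count rests on the minimum size: Mir302b changed by 0.94 in dedifferentiated cells against fibroblasts (limma adjusted p = 0.00036) and was called with array weights (1.01), without fibroblast replicate 2 (1.06) and without dedifferentiated replicate 1 (1.07). Of the 12 let-7 genes and hosts, the host Huwe1 was called higher in dedifferentiated cells (1.06; 0.93 and not called with arrays centred on their medians). Among the neighbours of the 9 genes on their chromosomes, 6 of 16 were called higher in dedifferentiated cells and 7 of 16 in ES cells against fibroblasts. The other 10 and 9 were not called. Over all genes, 8.79% and 8.85% were called higher. Gdf3, beside Dppa3, was higher by 5.07 in dedifferentiated and 3.93 in ES cells, and is itself on the list of ES cell associated transcripts. The part of chromosomal position was not tested.

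Markers of other cells were read on the same arrays. All 14 measured fibroblast genes were called lower than in fibroblasts in dedifferentiated and in ES cells. Of 9 macrophage genes, 1 (Cd68) was called higher and 5 lower (Lyz2, Itgam, C1qa, C1qb and C1qc) in each of these comparisons. Lyz2 had a mean of 8.85 on fibroblast arrays and was lower by -5.65 in dedifferentiated and -5.52 in ES cells. The mean of the 9 genes was 5.78 to 5.93 on fibroblast arrays, and whether these cultures held macrophages was not tested. The Cd68 call in dedifferentiated cells (1.05) was lost with arrays centred on their medians (0.93), with further quantile normalization and without fibroblast replicate 2 (both 1.0 after rounding). Of 8 endothelial genes, 3 were called higher and 1 lower in dedifferentiated cells, 0 higher and 1 lower in ES cells, and 2 higher in dedifferentiated than in ES cells (Cdh5 by 1.38, Esam by 1.07, or 0.98 and not called without dedifferentiated replicate 3). Of 9 cardiomyocyte genes 0 were called in any comparison by limma, though 3 passed as higher and 1 as lower in dedifferentiated cells, 4 as higher and 2 as lower in ES cells, each against fibroblasts, and 1 as higher and 1 as lower between dedifferentiated and ES cells, at the adjusted p alone. Actc1 changed by 0.54 in dedifferentiated cells and by -0.24 in ES cells against fibroblasts. Of 11 trophoblast and endoderm genes, 3 were called higher and 1 lower in dedifferentiated cells, and 2 higher and 2 lower in ES cells, where Sox17 was not called without fibroblast replicate 2 (0.99).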
